A study of Mus musculus with 2 samples.

Results

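The collagen chain genes other than Col4a1 and Col4a2 were taken by symbol, as every gene named Col, digits, a and digits whose array accession matched a RefSeq symbol. The gene table holds 42 such symbols, of which 40 had a probe on the array, among 20274 genes with a matched probe. Of these 40, 37 had a probe well above background and were tested, among 16067 genes tested in all. Col4a3, Col19a1 and Col28a1 were not well above background, and no probe was matched to Col6a3 and Col12a1. Mouse embryonic stem cells (ESCs) labelled HDAC6 overexpression were set against wild-type (WT) ESCs on 2 two-colour Agilent arrays. HDAC6 is a mainly cytoplasmic deacetylase that acts on tubulin. On each array the RNA of HDAC6 overexpression cells carried the dye Cy5 and that of WT cells Cy3, with no dye swap. Both kinds of cells were of strain B6C3F1, stood at passage 26 and were kept with the cytokine LIF on feeders, which are mouse embryonic fibroblasts arrested with mitomycin C. The promoter that drives HDAC6 and the number of clones are not given in the sources used here.

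Collagen molecules are helical trimers of chains, each chain encoded by its own gene. Fibrillar collagens such as types I, III and V build the tensile fibrils of connective tissue and are made above all by fibroblasts, while network-forming collagens build sheets such as basement membranes. The remaining classes decorate fibrils, form beaded filaments or anchoring fibrils, or span the cell membrane. The feeders beneath the ESCs are fibroblasts, and which cells the collagen RNA came from was not tested.

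Promoter sequences from the RefSeq table of build GRCm38.p6 show the start regions of genes on which the results below turn. Each runs from 250 bases before the annotated start to 50 bases after it, 5′ to 3′ on the gene's own strand, and capitals mark CCAAT on either strand and TATAAA on either strand. Col1a2, a fibrillar chain gene that rose, lies on the plus strand at chr6:4505368-4505667. Col3a1, a second fibrillar gene that rose, lies on the plus strand at chr1:45311288-45311587. Col4a6 (minus strand, chrX:141474027-141474326) and Col4a5 (plus strand, chrX:141475169-141475468) are neighbours read away from each other, and they are shown because Col4a6 fell and Col4a5 rose.
Col1a2 promoter: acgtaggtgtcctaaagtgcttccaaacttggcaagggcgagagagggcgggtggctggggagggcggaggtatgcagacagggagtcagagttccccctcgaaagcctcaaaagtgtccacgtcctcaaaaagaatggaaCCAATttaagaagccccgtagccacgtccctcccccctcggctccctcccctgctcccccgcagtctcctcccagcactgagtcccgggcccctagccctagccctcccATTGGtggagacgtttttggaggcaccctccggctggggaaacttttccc
Col3a1 promoter: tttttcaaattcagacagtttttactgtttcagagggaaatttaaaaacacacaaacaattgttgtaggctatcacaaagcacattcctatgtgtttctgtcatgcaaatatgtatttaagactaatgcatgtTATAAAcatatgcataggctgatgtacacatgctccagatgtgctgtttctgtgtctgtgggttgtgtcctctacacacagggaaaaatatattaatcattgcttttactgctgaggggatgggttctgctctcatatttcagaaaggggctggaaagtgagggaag
Col4a6 promoter: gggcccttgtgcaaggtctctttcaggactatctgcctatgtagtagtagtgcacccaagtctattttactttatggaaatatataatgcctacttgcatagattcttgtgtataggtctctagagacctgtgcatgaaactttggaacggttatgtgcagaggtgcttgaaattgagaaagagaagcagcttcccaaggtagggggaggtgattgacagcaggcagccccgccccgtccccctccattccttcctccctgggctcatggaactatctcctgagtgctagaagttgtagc
Col4a5 promoter: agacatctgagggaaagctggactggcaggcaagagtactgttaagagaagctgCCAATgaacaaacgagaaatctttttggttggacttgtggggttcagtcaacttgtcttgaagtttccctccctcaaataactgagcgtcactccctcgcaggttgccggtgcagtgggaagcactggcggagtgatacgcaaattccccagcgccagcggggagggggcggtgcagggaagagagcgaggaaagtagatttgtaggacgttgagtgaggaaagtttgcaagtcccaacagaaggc
The Col1a2 window holds 2 CCAAT matches and the Col4a5 window 1, while the Col3a1 window holds 1 TATAAA match and the Col4a6 window neither motif. The GC content of these windows was 61.0% for Col1a2, 37.7% for Col3a1, 48.3% for Col4a6 and 52.7% for Col4a5. Of the 40 members with a probe, 32 had a promoter entry. CCAAT was found in 4 of 16 such members that were higher and 2 of 6 that were lower, beside 37.4% of all 32851 promoters of the table. TATAAA was found in 4 of 16 and 0 of 6, beside 13.6% of all promoters. GGGCGG, the GC box, was found in 9 of 16 and 5 of 6, beside 35.7%, and TGANTCA, the AP-1 motif, in 1 of 16 and 0 of 6, beside 7.81%. A member counted if any of its promoter entries held the motif, whereas the shares over all promoters count single entries, so they are unlike units. Matches were sought on both strands and describe letters only.

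The array values are processed signals, fluorescence in arbitrary units after the scanner software had subtracted background and normalized the dyes. They are comparable between channels of a probe but not between probes. In HDAC6 overexpression cells, 69.4% and 69.3% of probes (replicates 1 and 2) were well above background, against 69.6% and 68.8% in WT cells. Hdac6 itself had signals of 18270 and 17340 in HDAC6 overexpression cells and of 16390 and 17810 in WT cells, a log2 ratio of 0.06 ± 0.14 (limma adjusted p = 0.638). These signals overlapped, so Hdac6 gives no check of the labels, and whether its probe reads the introduced copy is not known here. All ratios below are log2 of HDAC6 overexpression over WT, given as the mean of 2 arrays ± SD (n = 2), with adjusted p from limma over all 16067 genes. The number of arrays limits the precision. The labels call the arrays biological replicates, but the deposited files give the cell material on both arrays the same number, so the p-values may measure technical spread only.

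Fibrillar chain genes were mostly higher in HDAC6 overexpression cells, network-forming genes went both ways, and the other classes were split. Fibroblast markers other than collagens were higher in 18 of 22 cases, beside 21.2% of all genes tested, with a median log2 ratio of 1.03. Primitive endoderm markers were higher in 20 of 20, with a median of 2.93. Both lists are described with the other marker lists, and their part in the collagen ratios was not tested. Over all members, 19 of 37 were higher and 9 lower at an adjusted p under 0.05. Among all genes tested the same calls covered 21.2% (higher) and 29.9% (lower), together 51.2%. The members' share of higher calls was thus 51.4%, and their share of lower calls 24.3%. Of the 19 higher members, 5 (Col13a1, Col14a1, Col15a1, Col20a1, Col24a1) were not well above background on both arrays in WT cells and entered the test through the HDAC6 overexpression channel, where they were the brighter. Requiring both channels on both arrays left 31 members, 14 higher and 10 lower, beside 22% and 31.2% of 15418 genes. The median log2 ratio was 0.46 over the 37 members, with a range of -1.91 to 2.60, against -0.06 over all genes. With the members that have only a bound set to it, the median was 0.38. It was 0.21 over the 31 members with both channels well above background, and 0.23 over the 37 with normexp and loess of the raw signals. At least 2-fold higher on both arrays were 6 members, a share that was 3.04% over all genes. Among the 6 were Col20a1 and Col24a1, which entered the test through the HDAC6 overexpression channel. With both channels well above background on both arrays, 4 members were left. The count over all genes fell under that filter too. At least 2-fold lower on both arrays were 2 members, beside 4.40% over all genes.

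**Figure D1:**
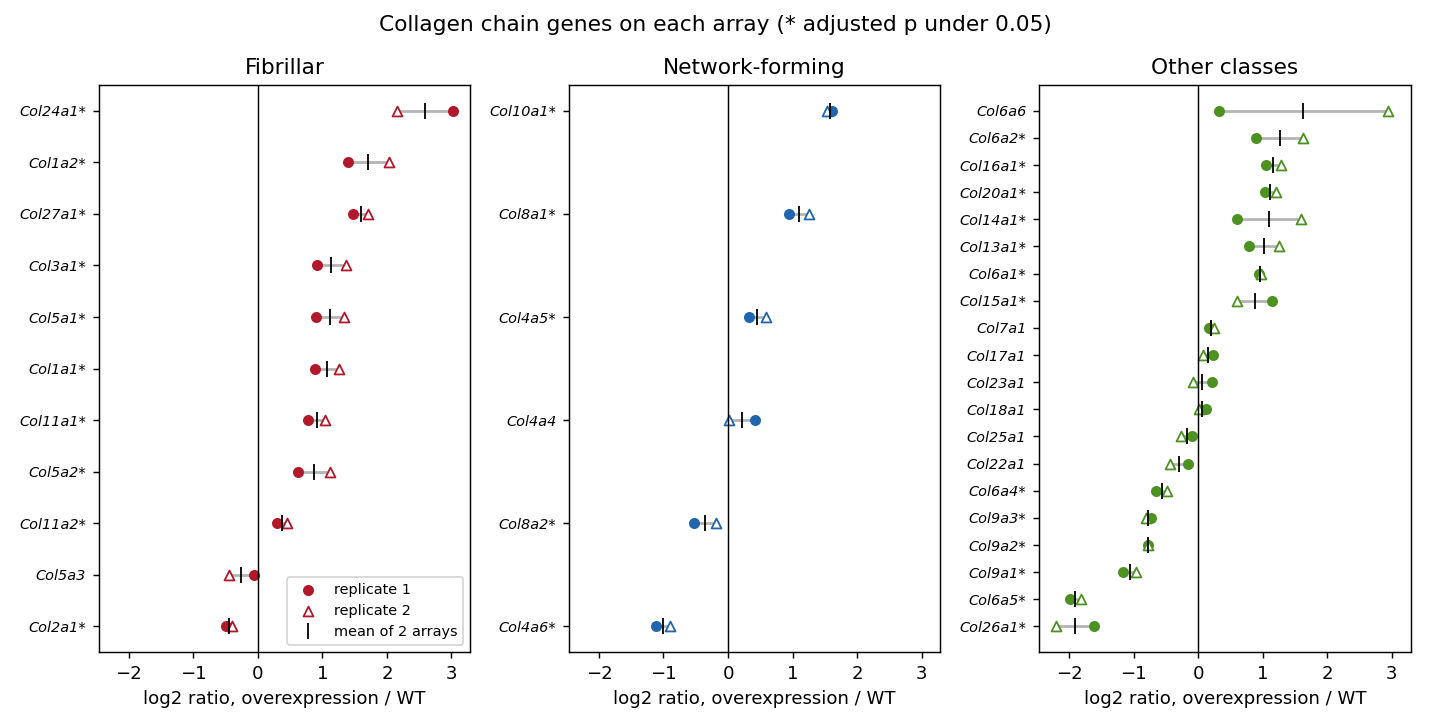
Log2 ratio of HDAC6 overexpression over WT for the 37 tested collagen chain genes in 3 panels by class, with filled circles for replicate 1, open triangles for replicate 2 and a tick for the mean of the 2 arrays. Most of the 11 fibrillar genes lie right of 0, and Col26a1 and Col6a5 lie farthest left among the other classes.

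Of the 11 fibrillar chain genes, all of them tested, 9 were higher, 1 was lower and 1 did not pass. Their median log2 ratio was 1.08, with 0.89 in replicate 1 and 1.26 in replicate 2. Col1a1 encodes one chain of type I collagen, the main protein of tendon, bone and skin. Its signals were 27470 and 34630 in HDAC6 overexpression cells, against 14810 and 14430 in WT cells. The groups did not overlap, and the gene rose 2.11-fold (log2 ratio 1.08 ± 0.26, limma adjusted p = 0.00135). Col1a2 encodes the partner chain of type I. It had signals of 36250 and 42550 in HDAC6 overexpression cells and of 13840 and 10370 in WT cells. Both signals of the HDAC6 overexpression cells were above both of WT, a 3.28-fold rise (1.71 ± 0.46, limma adjusted p = 0.000923).

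Type III collagen, a homotrimer of Col3a1 chains, accompanies type I in skin and vessels. Col3a1 had signals of 20980 and 29070 in HDAC6 overexpression cells, against 11100 and 11320 in WT cells. Without overlap, it rose 2.20-fold (1.14 ± 0.31, limma adjusted p = 0.00148). Type V collagen chains sit inside type I fibrils and set their diameter. Col5a1 measured 20230 and 26260 in HDAC6 overexpression cells and 10840 and 10450 in WT cells, a 2.17-fold rise without overlap (1.11 ± 0.30, limma adjusted p = 0.00151). Col5a2, the direct neighbour of Col3a1 on chromosome 1, measured 931.8 and 1552 in HDAC6 overexpression cells, against 606.7 and 712.1 in WT cells. It rose 1.83-fold (0.87 ± 0.36, limma adjusted p = 0.00452), again without overlap. The third chain gene of type V, Col5a3, did not pass, at -0.26 ± 0.27 (limma adjusted p = 0.128, unadjusted 95% interval -0.56 to 0.04), though an intensity-trended prior called it lower (limma adjusted p = 0.0436), and its signals of 5215 and 5081 in HDAC6 overexpression cells lay below the 5450 and 6933 of WT cells.

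Type II and type XI collagens form the fibrils of cartilage, and their genes did not move as one. Col2a1, the type II gene, fell by 0.45 ± 0.07 on the log2 scale (limma adjusted p = 0.0107), with signals of 4872 and 5890 in HDAC6 overexpression cells, against 6871 and 7755 in WT cells. The type XI genes Col11a1 (0.91 ± 0.19, limma adjusted p = 0.0016) and Col11a2 (0.38 ± 0.11, limma adjusted p = 0.0216) were higher. Col11a2 lost its call with normexp correction of the raw signals, at 0.23 after loess and 0.19 after median centring.

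Col24a1 and Col27a1 encode later-described fibrillar chains, known in mouse from bone (Col24a1) and cartilage (Col27a1), and both were higher. Col27a1 had 1146 and 1375 in HDAC6 overexpression cells, against 410.5 and 422.2 in WT cells. Its groups did not overlap and it rose 3.02-fold (1.59 ± 0.16, limma adjusted p = 0.000309). Col24a1 had 104.8 and 148.4 in HDAC6 overexpression cells, and 12.84 and 33.17 in WT cells, where it was not well above background on either array. It was at least 2.99-fold higher (limma adjusted p = 0.000546), with a fitted log2 ratio of 2.60. Such bounds set the dim channel at the lowest signal of any probe well above background or at its own, whichever was higher. They are open to dye bias and hold for the processed signals only. With normexp and loess of the raw signals Col24a1 had a log2 ratio of 1.19, which is below its bound.

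**Figure D2:**
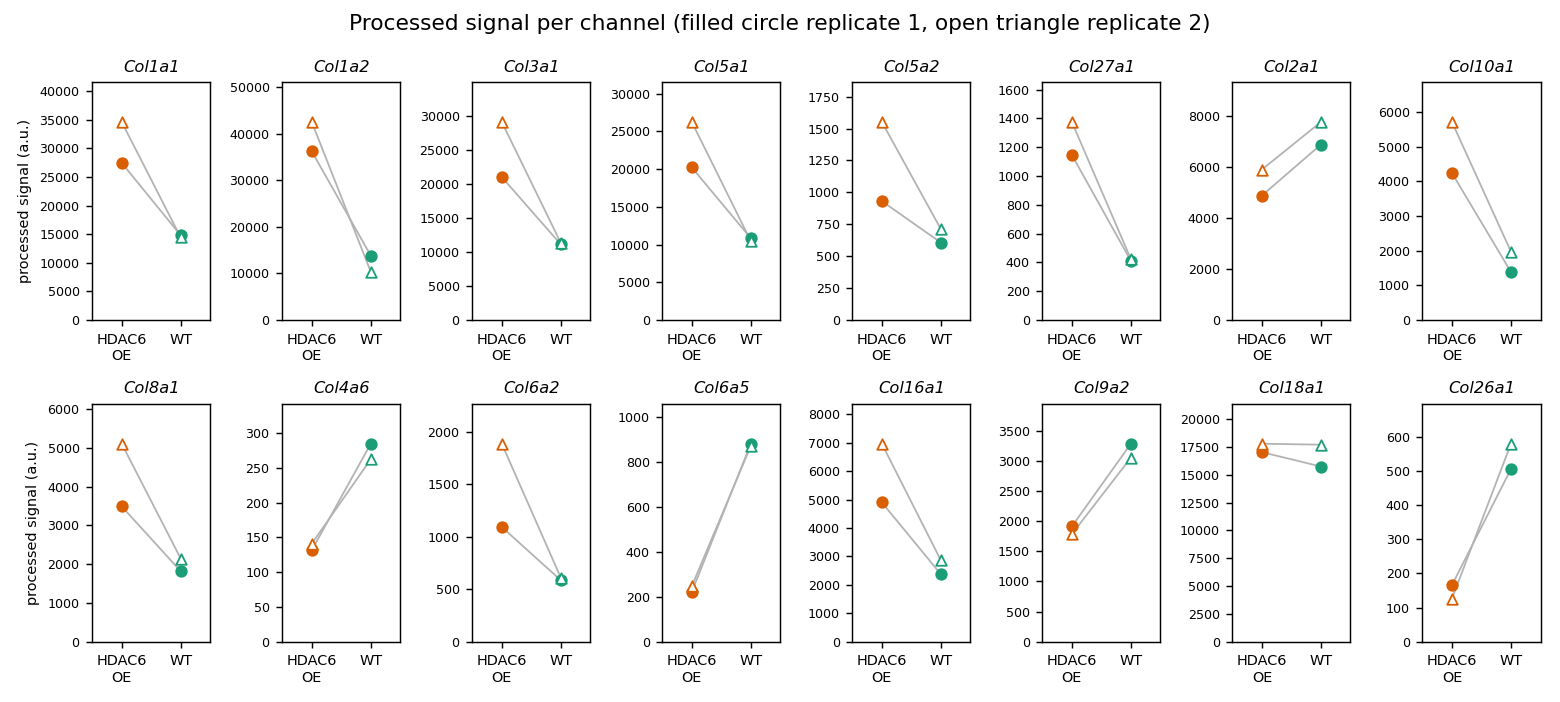
Processed signal in arbitrary units for 16 collagen chain genes, one panel each with its own axis from 0, HDAC6 overexpression left and WT right, with a line joining the channels of 1 array (filled circle replicate 1, open triangle replicate 2). The WT signals of Col1a1, Col3a1 and Col27a1 nearly coincide between arrays while the overexpression signals differ, and Col18a1 runs nearly flat.

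Chromosome positions give a further description of these genes. Col1a1 lies on chromosome 11, whose 1340 tested genes had a median log2 ratio of -0.51, and it was higher all the same. Col3a1 and Col5a2 lie on chromosome 1, where the median over 908 tested genes was 0.25, below the ratio of both.

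Network-forming genes went in both directions: of 6 tested of 7, 3 were higher, 2 lower and 1 did not pass, with a median log2 ratio of 0.33. Col10a1, the type X gene known from hypertrophic cartilage, had 4240 and 5712 in HDAC6 overexpression cells, against 1385 and 1971 in WT cells. Without overlap it rose 2.98-fold (1.57 ± 0.06, limma adjusted p = 0.000236), with a replicate SD of 0.06 beside the 0.46 of Col1a2. Type VIII collagen makes the hexagonal network under the corneal endothelium. Its genes parted: Col8a1 rose 2.14-fold (1.10 ± 0.22, limma adjusted p = 0.00109), and Col8a2 was lower at -0.35 ± 0.24 (limma adjusted p = 0.0473). The call of Col8a2 was lost when the ratios were centred, when probes were averaged and when dim probes were kept.

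The minor type IV chains replace the common Col4a1 and Col4a2 chains in specialised basement membranes such as that of the kidney. For comparison, Col4a1 and Col4a2 rose 7.09-fold (2.83 ± 0.07) and 5.27-fold (2.40 ± 0.17), against 2.98-fold for Col10a1, the highest of the network members. The neighbours Col4a6 and Col4a5, whose promoter windows above lie 842 bases apart, moved in opposite directions. Col4a6 had 131.4 and 140.8 in HDAC6 overexpression cells, against 284.6 and 262.3 in WT cells, and fell by 1.01 ± 0.15 (limma adjusted p = 0.00105) without overlap. Col4a5 had 2390 and 3337 in HDAC6 overexpression cells, against 1904 and 2230 in WT cells, and rose 1.37-fold (0.45 ± 0.18, limma adjusted p = 0.0154). Another probe of Col4a6, not well above background in either channel, had a log2 ratio of -0.04, and the mean over both probes was -0.52. Col4a4 did not pass, at 0.21 ± 0.28 (limma adjusted p = 0.196), and the mean over its probes gave 0.66 with a call. Col4a3, which lies beside Col4a4, had 16.64 and 11.97 in HDAC6 overexpression cells and 8.11 and 9.11 in WT cells, all below the background limit.

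Of the other classes, 20 of 22 genes with a probe were tested, and 7 were higher, 6 lower and 7 neither. Their shares of 35% higher and 30% lower stood beside 21.2% and 29.9% of all genes tested. Their median log2 ratio was 0.11, with 0.19 in replicate 1 and 0.04 in replicate 2. Of the 7 higher genes, 4 were not well above background on both arrays in WT cells. Restricted to the 15 genes well above background in both channels on both arrays, 3 were higher and 7 lower, and the median was -0.18. Among all 15418 genes so restricted, 22% were higher and 31.2% lower, so lower calls were the more frequent there too. FACIT collagens, which coat the surface of fibrils, were split 3 higher and 3 lower of 7 tested. Col16a1 had 4902 and 6965 in HDAC6 overexpression cells, against 2374 and 2863 in WT cells. The groups stood apart and the gene rose 2.24-fold (1.16 ± 0.17, limma adjusted p = 0.000731), with its other probes at 0.41 and 0.93. Col20a1 had 109 and 108.8 in HDAC6 overexpression cells and 53.43 and 47.28 in WT cells, where it was well above background on 1 of 2 arrays. It rose 2.17-fold (1.12 ± 0.12, limma adjusted p = 0.000695), and normexp and loess of the raw signals gave a log2 ratio of 0.64. Col14a1, whose product regulates fibril growth in mouse skin and tendon, was called higher at 1.09 ± 0.70 (limma adjusted p = 0.0114), but normexp correction of the raw signals gave 0.23 after loess and 0.22 after median centring, with no call. Col22a1, a gene of tissue junctions, did not pass at -0.29 ± 0.20 (limma adjusted p = 0.0652, unadjusted 95% interval -0.56 to -0.03), though 3 alternatives called it lower.

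All chain genes of type IX collagen, the FACIT on the surface of cartilage fibrils, fell together. Col9a1 measured 55.5 and 61.18 in HDAC6 overexpression cells, against 124.1 and 119.2 in WT cells (-1.06 ± 0.14, limma adjusted p = 0.000858). Col9a2 measured 1913 and 1785 in HDAC6 overexpression cells, against 3285 and 3053 in WT cells (-0.78 with an SD of 0.00428, limma adjusted p = 0.00154). Col9a3 measured 331.2 and 321.5 in HDAC6 overexpression cells and 551.9 and 561.1 in WT cells (-0.77 ± 0.05, limma adjusted p = 0.00165). In none of these genes did the groups overlap. The dim second probe of Col9a1 had -0.26, and normexp and loess of the raw signals gave -0.45 for the first. Col19a1, the neighbour of Col9a1, stayed between 8.32 and 9.44 in every channel and was not tested.

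Type VI collagen forms beaded filaments around cells, and its chain genes went both ways, with 2 higher, 2 lower and 1 that did not pass of 5 tested. Col6a1 had 9465 and 12680 in HDAC6 overexpression cells, against 4919 and 6459 in WT cells, and rose 1.94-fold (0.96 ± 0.02, limma adjusted p = 0.000869). Col6a2, its direct neighbour on chromosome 10, had 1093 and 1886 in HDAC6 overexpression cells, against 585.6 and 610.2 in WT cells, and rose 2.40-fold (1.26 ± 0.51, limma adjusted p = 0.00293). Neither gene's groups overlapped. Col6a4, Col6a5 and Col6a6 lie side by side on chromosome 9. Col6a5 had 221.8 and 247.3 in HDAC6 overexpression cells, against 882 and 872.4 in WT cells, and was 3.75-fold lower (-1.91 ± 0.12, limma adjusted p = 0.000165). With Col26a1 this was the lowest ratio of the members, although its second probe, not well above background in either channel, had -0.01 and the mean over both probes was -0.96. Col6a4 was lower at -0.57 ± 0.12 (limma adjusted p = 0.00565). Col6a6 differed most between arrays of all members, with log2 ratios of 0.32 and 2.94. Its mean of 1.63 ± 1.85 did not pass (limma adjusted p = 0.0558), though 3 alternatives called it higher, and its WT signals of 55.71 and 9.47 were well above background on 1 array only, beside 69.59 and 72.59 in HDAC6 overexpression cells.

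Col26a1, which encodes a short secreted collagen described in mouse testis and ovary, had 165.5 and 125.8 in HDAC6 overexpression cells, against 505.3 and 579.2 in WT cells. Without overlap it was 3.75-fold lower (-1.91 ± 0.42, limma adjusted p = 0.000581). Col28a1 had 25.91 and 50.83 in HDAC6 overexpression cells and 18.73 and 33.08 in WT cells, and only its overexpression signal of replicate 2 was well above background.

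Multiplexins, cut to release anti-angiogenic fragments, are basement membrane collagens. Col18a1, the endostatin precursor, had 17040 and 17800 in HDAC6 overexpression cells, against 15750 and 17710 in WT cells. These ranges overlapped, and the ratio of 0.06 ± 0.08 did not pass (limma adjusted p = 0.609, 95% interval -0.17 to 0.29), with 0.13 for its other probe. Normexp with median centring, which removes no trend with intensity, gave 0.52 for Col18a1 and a call (limma adjusted p = 0.000576). Col15a1 was not well above background in WT cells and was at least 1.26-fold higher (limma adjusted p = 0.00512). Its other probes, dim in both channels, had -0.86 and 0.29, and their mean with the first was 0.10 with no call.

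Among the transmembrane collagens, Col13a1, a gene of cell adhesion sites and the neuromuscular junction, was not well above background in WT cells and was at least 1.54-fold higher (limma adjusted p = 0.00226). That bound too was missed with normexp and loess of the raw signals, where Col13a1 had a log2 ratio of 0.38. Col17a1 (hemidesmosomes, 0.15 ± 0.11), Col23a1 (0.06 ± 0.21) and Col25a1 (-0.18 ± 0.12) did not pass, with limma adjusted p of 0.236, 0.661 and 0.171. The mean over probes gave -0.42 and a call for Col25a1, and normexp with median centring turned Col17a1 to -0.02 with no call. A second probe of Col23a1, well above background in both channels, had 0.75. Col7a1, the anchoring fibril gene of skin, had 0.21 ± 0.06 and did not pass either (limma adjusted p = 0.109, 95% interval -0.02 to 0.43).

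Between the arrays 36 of 37 members had ratios of the same sign, a share of 97.3% beside 85.9% over all genes. The difference between arrays nevertheless spread more widely, with an SD of 0.561 over the members against 0.275 over all genes. Across the 37 genes, Pearson r was 0.87 and Spearman rho 0.88, against 0.92 and 0.90 across all 16067 genes. Genes are not independent replicates, and the points share 2 arrays and 1 dye orientation. The members' ratio was greater in replicate 2 for 25 of 37 genes, with a median difference of 0.17, whereas over all genes 49.6% were greater with a median difference of -0.00259. Fibrillar genes were greater in replicate 2 in 9 of 11 cases (median difference 0.27), network-forming genes in 4 of 6 (0.24) and the others in 12 of 20 (0.06). Of the 19 members called higher, 16 were greater in replicate 2, led by Col14a1 (0.99), Col6a2 (0.73) and Col1a2 (0.65), while Col24a1 (-0.87), Col15a1 (-0.54) and Col10a1 (-0.08) went the other way. With 1 array on each side this difference has no replicate check.

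**Figure D3:**
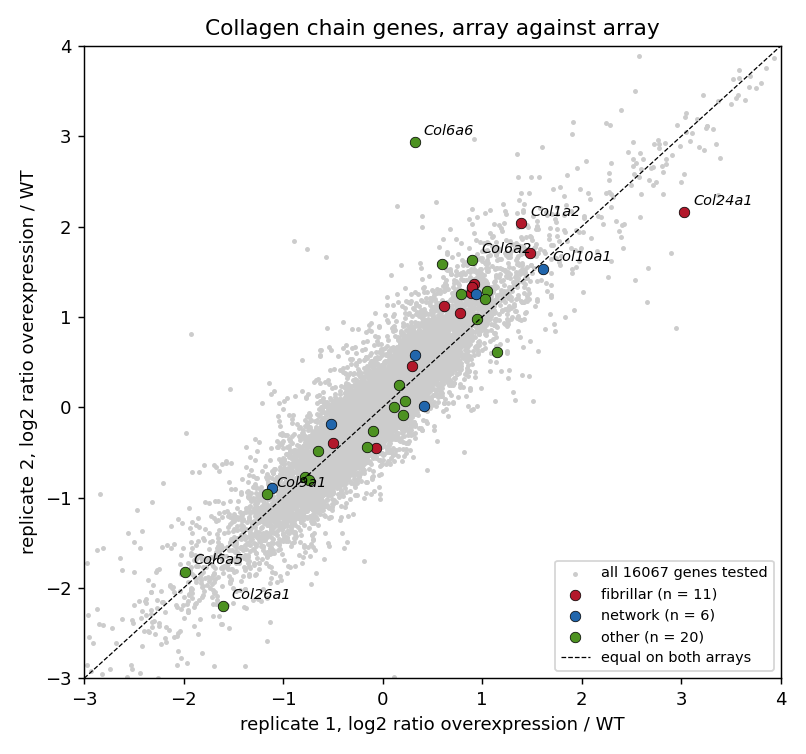
Log2 ratio of HDAC6 overexpression over WT in replicate 1 (x axis) against replicate 2 (y axis) for all 16067 genes tested (grey) and the 37 collagen chain genes (coloured by class), with a dashed line of equality. Most fibrillar genes that rose lie above the line, Col24a1 lies below it, and Col6a6 stands far above it.

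Genes that build, modify and bind collagen were described from 5 further lists, beside 21.2% higher and 29.9% lower over all genes tested. Of 18 genes for collagen modification in the endoplasmic reticulum, all tested, 13 were higher and 2 lower, with a median log2 ratio of 0.48. Those changed most were P4ha3, a catalytic prolyl hydroxylase subunit (1.59 ± 0.57, limma adjusted p = 0.0018), P3h2, a prolyl 3-hydroxylase that acts on type IV collagen (1.43 with an SD of 0.00038, limma adjusted p = 0.000296), and Serpinh1, the collagen chaperone (0.96 ± 0.07, limma adjusted p = 0.000923). P4hb, the partner subunit of the prolyl hydroxylases (-0.52), and the chaperone gene Fkbp10 (-0.47) were the lower ones. Both lie on chromosome 11, where the median over 1340 tested genes was -0.51, near their own ratios. P4ha2 (0.66, higher) and P3h4 (0.00, neither) of this list lie there as well. For propeptide cleavage and cross-linking, 10 of 11 tested genes of 13 were higher and 0 lower, with a median of 0.87. The lysyl oxidase genes Loxl3 (1.57 ± 0.22, limma adjusted p = 0.000419), Lox (1.30 ± 0.48, limma adjusted p = 0.00227) and Loxl1 (1.26 ± 0.39, limma adjusted p = 0.00159), which cross-link fibrils, led it. Adamts14, a propeptidase gene, was the member that did not pass, at 0.35 (limma adjusted p = 0.071).

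For proteins on the fibril surface, 8 of 10 tested genes of 12 were higher and 2 lower, with a median of 1.05. The small proteoglycan genes Fmod (1.63 ± 0.33, limma adjusted p = 0.000596), Lum (1.52 ± 0.22, limma adjusted p = 0.000456) and Bgn (1.43 ± 0.43, limma adjusted p = 0.00133) were changed most. Comp, a cartilage matrix gene, was lower at -1.21, as was Tnxb at -0.39. Of 8 tested collagen receptor genes of 10, 4 were higher and 0 lower, with a median of 0.42. They included Itga2, an integrin subunit not well above background in WT cells (at least 1.66-fold higher in the processed signals), Itga11, the fibroblast integrin for type I collagen (0.99 ± 0.24, limma adjusted p = 0.00153), and Lair1, an inhibitory immune receptor (0.58 ± 0.06, limma adjusted p = 0.0043). Collagen-cleaving proteases had 4 higher and 1 lower of 6 tested of 8, among them the collagenase gene Mmp13 (1.44 ± 0.55, limma adjusted p = 0.00232), the cathepsin K gene Ctsk (0.90 ± 0.36, limma adjusted p = 0.00407) and the membrane-bound Mmp14 (0.71 ± 0.64, limma adjusted p = 0.0366). Mmp9, a gelatinase gene, was lower at -0.49.

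Of the 7 marker lists, those of fibroblasts and of primitive endoderm were mostly or wholly higher. Calls went both ways in the other lists, except that no keratinocyte marker was higher. Over all genes tested, 21.2% were higher and 29.9% lower. Of 24 fibroblast markers other than collagens, 22 were tested (all but Tcf21 and Dpt, not well above background), and 18 were higher and 0 lower. Their median was 1.03, with 0.72 in replicate 1 and 1.49 in replicate 2, and 21 of 22 were greater in replicate 2. Their summed processed signals were 250346 and 333137 in HDAC6 overexpression cells, against 151179 and 134384 in WT cells, without overlap. Such sums are weighted to the bright probes. Without Vim, the brightest, they were 210103 and 283831 in HDAC6 overexpression cells and 123555 and 114484 in WT cells. Pdgfra (2.75 ± 0.36), S100a4 (1.68 ± 0.25) and Ccl2 (1.56 ± 0.40) were changed most. Pdgfra is also a known gene of primitive endoderm, and 5 of the 24 (Dcn, Fap, Fn1, Loxl1, Lum) also stand in the lists above. Primitive endoderm markers, a lineage that lays down basement membrane, were higher in 20 of 20, with a median of 2.93 and sums of 244220 and 261109 in HDAC6 overexpression cells, against 52748 and 59714 in WT cells. They were led by Ttr (at least 31.2-fold higher), Cubn (5.51) and Gata4 (4.96), and 9 of 20 were greater in replicate 2. This list contains Col4a1 and Col4a2. The part of primitive endoderm cells in the collagen ratios was not tested either. In bulk RNA, fewer or more cells of a type and less or more RNA per cell cannot be told apart.

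ESC markers, all 12 of them well above background in both channels, were 3 higher and 4 lower, with a median of 0.12. These shares of 25% and 33.3% lay near the 21.2% and 29.9% of all genes tested. Their sums were 207045 and 221662 in HDAC6 overexpression cells, against 224061 and 241473 in WT cells. Without Nanog, the brightest probe of the list, the ranges overlapped, at 170209 and 178834 in HDAC6 overexpression cells and 176729 and 191921 in WT cells. Tdgf1 (-1.11), Esrrb (0.73) and Dppa5a (-0.53) changed most. Chondrocyte and bone markers, set beside the cartilage collagens, were 4 higher and 4 lower of 10 tested of 13, with a median of 0.14 and sums of 30707 and 37216 in HDAC6 overexpression cells, against 23303 and 21083 in WT cells. Spp1, a bone matrix gene with the brightest probe, carried these sums, which without it were 2884 and 3101 in HDAC6 overexpression cells and 4398 and 4892 in WT cells, the opposite order. The cartilage matrix genes Comp (-1.21), Matn3 (-1.02) and Acan (-0.96) were lower, while the cartilage matrix gene Matn1 (0.62) and the cartilage transcription factor gene Sox9 (0.86) were higher. Mesoderm and muscle markers had 3 higher and 3 lower of 9 tested of 11 (Mesp1 -1.17, Kdr -1.10, Eomes 1.01), with sums of 17259 and 20776 in HDAC6 overexpression cells and 15218 and 14242 in WT cells, ranges that overlapped without Eomes. Keratinocyte markers had 0 higher and 3 lower of 6 (Krt1 -0.997, Krt5 -0.63, Trp63 -0.54), with sums of 38596 and 41575 in HDAC6 overexpression cells and 45346 and 66243 in WT cells. Trp63 carried these sums, which without it were 7797 and 8054 in HDAC6 overexpression cells and 7759 and 8131 in WT cells. Endothelial markers had 1 higher and 4 lower of 5 tested of 6 (Kdr -1.10, Cdh5 1.06, Emcn at least 1.91-fold lower), with sums of 4486 and 4405 in HDAC6 overexpression cells and 6626 and 6536 in WT cells.

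**Figure D4:**
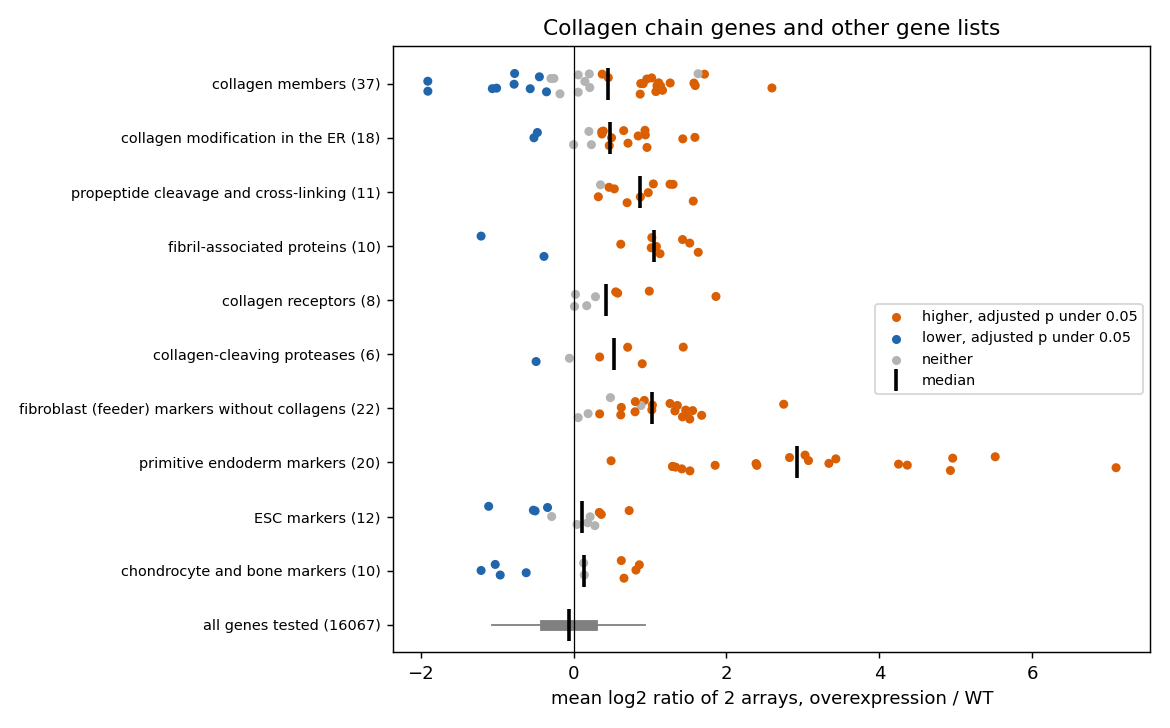
Mean log2 ratio of HDAC6 overexpression over WT on 2 arrays for each tested gene of the collagen members, 5 collagen-handling lists and 4 marker lists (orange higher, blue lower, grey neither), with a black tick at each median and, for all 16067 genes, a thin line from the 5th to the 95th and a thick one from the 25th to the 75th percentile. The fibroblast markers (median 1.03) and the fibril-associated genes (1.05) lie right of the collagen median of 0.46, and the primitive endoderm markers (2.93) lie farthest right.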

How the data were processed

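Agilent Feature Extraction 11.5.1.1 quantified the scans, per the file headers. Each array holds 62976 spots, 3671 of them controls. The deposited processed intensity values of both channels are background-subtracted and dye-normalized, per the file headers. The deposited log10 ratio is that of processed Cy5 over processed Cy3. The deposited series table holds log2 values. They correlated at -1 (slope -1) with these ratios, so they run as WT over HDAC6 overexpression. Their column medians were -0.00742 and 0.0624, and whether they were centred further is unknown.

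From the deposited processed signals, the log2 ratio of HDAC6 overexpression over WT was taken per spot, without outlier-marked spots (269 and 313). No spot was saturated. Spots of a probe were averaged, and each gene took its probe of highest mean signal, and was kept where that probe stood well above background on both arrays in at least 1 channel. Of 55681 probes, 26762 matched 1 RefSeq symbol (GRCm38.p6 table), 0 several and 28919 none. Ratios were tested against 0, two-sided, with limma 3.58.1 in R 4.3.3 (lmFit, eBayes, 1 residual and 4.59 prior degrees of freedom) and Benjamini-Hochberg adjustment, at a threshold of 0.05.

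Tested on simulated data for this comparison (16067 genes, 200 changed, 20 draws), the fit recovered 17.9% of genes changed by 0.5 (log2), 96.4% by 1 and 99.8% by 2. A median of 9.94% of calls were false, and at most 19%, above the threshold of 0.05 set for the adjusted p. In the data 51.2% of genes were called, a far larger share than was changed in the simulation. The simulated shares therefore need not hold for the data. The log2 ratios of copied probes had a median SD of 0.0307 on array 1 and 0.0312 on array 2.

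Genes given with the signals of both channels were those past the threshold and at least 2-fold changed on both arrays, Col1a1, Col1a2, Col3a1, Col5a1, Col5a2 and Col18a1. Signals of further members were added after their values were seen. Up to 3 genes with the largest absolute ratio were named per list. Members and lists were chosen with earlier results of these data known. Alternatives were other background corrections, centrings, filters, probe rules, priors and a test against 1.5-fold.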

Additional observations from a re-analysis of the deposited data

How the results depend on the processing

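No called member changed sign under any alternative with a test. The uncalled Col17a1 did, at -0.0162 with normexp and median centring. Without the 1.5-fold test, 16 of 19 higher and 8 of 9 lower members kept their call in every alternative that tested them. The 16 include Col13a1, Col20a1 and Col24a1, which were not tested where both channels had to be well above background. Of the 9 uncalled members, 6 (Col18a1, Col22a1, Col25a1, Col4a4, Col5a3, Col6a6) gained a call under at least 1 alternative. Leaving out an array leaves no residual degrees of freedom, so those are values with no test. The test of each array's ratio against 0 already uses the pairing of the channels. All arrays belong to 1 comparison, so no further pairing was possible.

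With limma's test against a 1.5-fold change, 669 of all genes were higher and 947 lower, as were 12 and 4 members. By class it left 6 fibrillar genes higher and 0 lower, 2 network-forming higher and 1 lower, and 4 and 3 of the other classes. The fibrillar genes that lost a higher call were Col11a1, Col11a2 and Col5a2. The same test left 3 higher and 0 lower for modification in the endoplasmic reticulum, 4 higher for cross-linking, 5 and 1 for fibril-associated genes, 1 higher for receptors, and 1 and 0 for proteases. For markers it left 9 higher (fibroblast), 0 and 1 (ESC), 0 and 2 (chondrocyte and bone), 1 and 1 (mesoderm), 1 lower (keratinocyte) and 2 lower (endothelial). An intensity-trended prior gave 2 fibrillar genes lower, 1 fibril-associated gene lower and 5 ESC markers higher. Centring the processed ratios gave 1 network-forming and 1 fibril-associated gene lower. The mean over probes gave 1 lower in each of network-forming, fibril-associated, receptor and keratinocyte genes, a network median of 0.555 and 1 member at least 2-fold lower. Without the filter on dim probes, 1 network-forming and 1 fibril-associated gene were lower, and the network median was 0.455.

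Requiring both channels well above background left 3 of the other classes higher, moved the members' median to 0.206 and turned the other classes' median to -0.177, with fewer genes tested by construction. Normexp and loess gave medians of 0.228 (members) and 0.267 (network), 287 genes at least 2-fold higher and 455 lower. Normexp and median centring, which leaves the intensity trend in the ratios, gave a network median of 0.189, 1 modification gene lower, 8 ESC markers higher and 2 lower, and 1 keratinocyte marker higher. It moved the share of higher among all calls to 50.3%, against 41.5%. Single arrays gave 569 to 895 genes at least 2-fold higher, 857 to 1070 lower, 7 to 16 members higher and 2 to 4 lower.

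Among gene lists, directions turned for the chondrocyte and bone median (-0.0154 with loess, -0.0271 with median centring) and the mesoderm and muscle median (0.00485 with centred ratios, 0.169 on replicate 2 alone). Among their genes called under either setting they turned for Dppa4 (0.0175), Nanog (0.915) and Trp63 (0.552) with median centring, and Mrc2 (-0.545) and Krt5 (0.0224) with the mean over probes. A further 9 list genes changed sign between settings without a call in either. Col1a1 moved to 1.68 with normexp and median centring, and Col13a1 to 0.38 with normexp and loess. The cause of these changes was not tested.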

Other observations

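Genes that carry a collagen-like domain but stand outside the collagen numbering were listed after values had been seen. Of 27 such genes, 24 were tested, and 14 were higher and 3 lower in HDAC6 overexpression cells, with a median log2 ratio of 0.41 (0.31 on array 1 and 0.49 on array 2). Higher were Gldn (1.32), which encodes gliomedin of the nodes of Ranvier, C1qtnf2 (1.12) and C1qtnf1 (1.10) of the C1q and TNF related family, and the complement chain genes C1qa (1.03), C1qb (0.88) and C1qc (0.66). Lower were the collectin genes Mbl2 (-1.53) and Sftpd (-0.84) and the secreted regulator gene Cthrc1 (-0.57). Over all genes tested, 21.2% were higher and 29.9% lower, and no test of the list as such was made.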
